A study of Mus musculus with 6 samples.

Results

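The B cell identity genes described here are 9 genes that mark B lymphocytes or carry the signal of their antigen receptor: Ms4a1, Cd79a, Cd79b, Pax5, Blnk, Cd37, Cd22, Fcer2a and Bank1. They were taken by gene symbol, without regard to their values, from a table of 57180 rows, and all 9 passed the filter on low counts that left 16989 genes for testing. RNA was sequenced from 6 whole-lung samples of mice in a model of chronic obstructive pulmonary disease, and the animals of both groups were exposed to cigarette smoke. 3 samples came from mice that overexpress FTO (genotype FTO_OE), an RNA demethylase that acts on N6-methyladenosine, and 3 from wild-type mice (WT). The comparison asked which lung transcripts differ when FTO is overexpressed under smoke. The labels used here do not give strain, sex, age, length of exposure or the way in which FTO was overexpressed, nor do they say that each sample is a separate animal, so the p-values measure the spread between these samples. Unexposed lungs were not analysed here, and no value below is an effect of smoke.

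B cells recognise antigen through a membrane immunoglobulin that signals through the paired chains CD79A and CD79B. The signal passes through the adaptor BLNK to the enzymes that release calcium, is damped by inhibitory co-receptors such as CD22, and acts in cells whose identity is held by the transcription factor PAX5. Lungs hold scattered B cells and, after long exposure to smoke, can form lymphoid follicles in which B cells gather. When B cells become plasma cells they lose Pax5 and many surface genes and fill with immunoglobulin messenger RNA.

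Libraries held 16731850 to 21444907 counts in FTO-overexpressing lungs and 18044267 to 19389115 in wild-type lungs, so that even Fcer2a, with the fewest counts of the 9, rested on 61 to 165 counts per library. Levels are given as CPM, counts brought to a common library size and scaled by the trimmed mean of M-values (TMM), and are not corrected for gene length, so that they are compared between libraries and not between genes. Fto stood at 666.1, 650.1 and 740.8 CPM in the overexpressing libraries, against 66.2, 69.9 and 68.6 CPM in the wild-type libraries, as their labels call for. The lung marker Sftpc, a surfactant protein gene, stood at 12282, 11476 and 14157 CPM in overexpressing lungs, against 15070, 13843 and 12613 CPM in wild-type lungs. Genes of immature lymphocytes were at or near 0, with Rag2 at 0 counts in all 6 libraries. In whole tissue, fewer cells of a type and less RNA per cell cannot be told apart.

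The reference sequences upstream of 3 of the genes are shown because these genes took different orders across the libraries, as described below: Cd22 followed Ms4a1, Blnk did not, and Cd79a lay between them. Each run is the 250 bases before the RefSeq start of the gene in build GRCm38.p6, 5′ to 3′ on the strand of the gene, at chr7:24897247-24897496 (plus strand) for Cd79a, chr7:30879029-30879278 (minus strand) for Cd22 and chr19:40994222-40994471 (minus strand) for Blnk. The capitals mark matches to the octamer ATGCAAAT, the ETS family motif AGGAAGTG and a short EBF1 motif, CNCNNGGGA, on either strand, and a run of capitals can hold overlapping matches.
Cd79a: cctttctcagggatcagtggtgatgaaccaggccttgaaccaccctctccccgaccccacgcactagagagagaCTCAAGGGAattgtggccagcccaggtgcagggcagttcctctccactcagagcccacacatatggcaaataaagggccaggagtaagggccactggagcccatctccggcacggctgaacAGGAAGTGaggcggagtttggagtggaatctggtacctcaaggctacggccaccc
Cd22: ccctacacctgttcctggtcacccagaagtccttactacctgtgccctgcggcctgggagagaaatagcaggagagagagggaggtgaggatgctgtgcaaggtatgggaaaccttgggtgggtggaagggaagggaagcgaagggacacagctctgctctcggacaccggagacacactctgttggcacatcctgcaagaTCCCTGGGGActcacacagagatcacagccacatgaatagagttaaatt
Blnk: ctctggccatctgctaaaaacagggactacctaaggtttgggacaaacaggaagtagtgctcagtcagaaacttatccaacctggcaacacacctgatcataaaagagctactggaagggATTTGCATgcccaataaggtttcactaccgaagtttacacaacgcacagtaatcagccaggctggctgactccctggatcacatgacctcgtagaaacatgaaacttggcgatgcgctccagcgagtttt

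Cd79a held the EBF1 match CTCAAGGGA and the ETS match AGGAAGTG. Cd22 held overlapping EBF1 matches on both strands in TCCCTGGGGA, and Blnk held the octamer as ATTTGCAT. Among 32851 upstream windows of the same length the octamer was found in 1.6%, the ETS motif in 3.14% and the EBF1 motif in 18.1%. RefSeq windows were found for 7 of the 9 genes, which have 9 windows in all. Of these 9 windows, 1 held the octamer, 1 the ETS motif and 3 the EBF1 motif (in Cd79a, Cd22 and Fcer2a). A stricter EBF1 form, TCCC and GGGA with NN between them, was found in Cd22 alone and in 0.779% of all windows. The E-box CAGGTG, not in capitals here, was found in 6 of the 9 windows, including all 3 shown, and in 17.2% of all windows. TATAAA was found in 2 of the 9, in Bank1 and Fcer2a, and in 12.4% of all windows. The motifs were chosen with the sequences in view, and a match is a run of letters, not a bound site. Pax5 and Bank1, with the same highest and lowest libraries as Ms4a1, held no octamer, ETS or EBF1 match. A link between motifs and library order was not tested.

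None of the 9 genes passed the test between FTO-overexpressing and wild-type lungs, and their differences were within the spread between samples. By edgeR's quasi-likelihood test, 0 of 9 passed an adjusted p of 0.05, where 0.0942% of all genes tested did (0.0765% higher and 0.0177% lower), and 0 of 9 had an unadjusted p under 0.05, where 9.44% of all genes did. DESeq2 and limma-voom likewise called 0 of the 9. The libraries of the groups overlapped for all 9 genes, while 14.9% of all genes had groups that did not overlap (7.96% higher and 6.9% lower). The fitted log2 fold change was below 0 for 5 genes, where it was for 48.5% of all genes, and above 0 for 4, from -0.30 for Blnk to 0.32 for Cd37, and its median was -0.0060 over the 9 genes and 0.0069 over all genes tested. The 9 genes together summed to 148.1, 142.3 and 153.1 CPM in the overexpressing libraries, against 204.0, 140.6 and 89.0 CPM in the wild-type libraries. The mean of that sum was 147.8 ± 5.39 CPM in overexpressing and 144.5 ± 57.6 CPM in wild-type lungs (SD, n = 3 each).

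**Figure D1:**
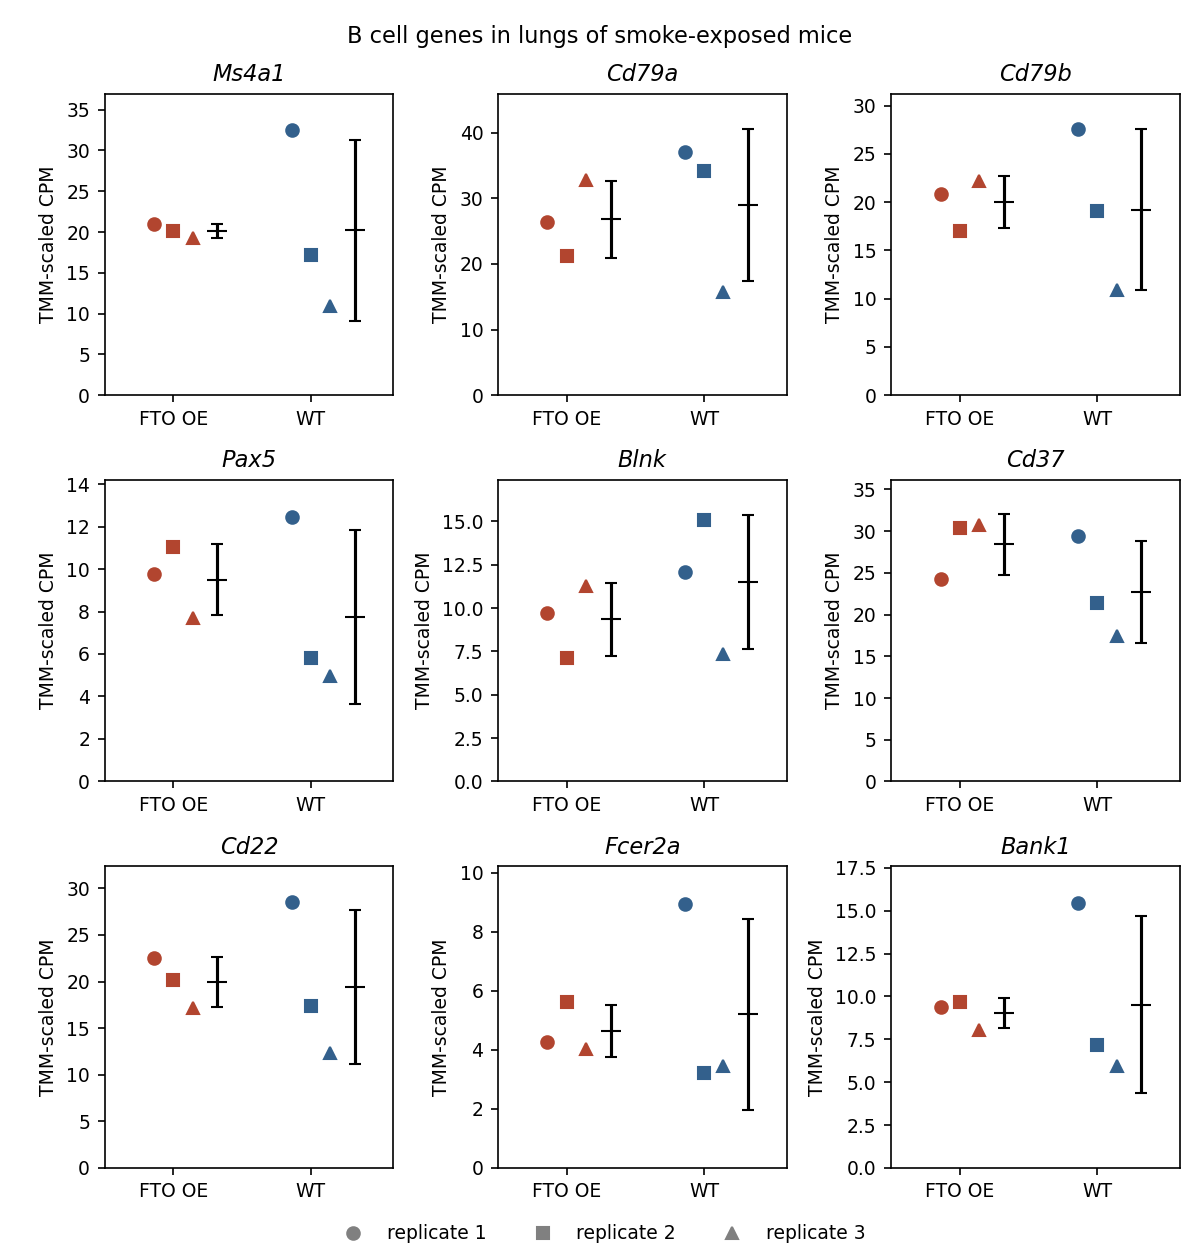
TMM-scaled CPM of each of the 9 B cell genes in each library, FTO-overexpressing (FTO OE) on the left and wild-type (WT) on the right of each panel; marker shapes give the replicate number, and the bar beside each group is the mean with its SD (n = 3). The 3 overexpressing libraries lie close together in most panels, while wild-type replicate 1 is high and wild-type replicate 3 low, so that the groups overlap in all 9 panels.

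The surface gene Ms4a1, which encodes CD20, the target of therapeutic antibodies that deplete B cells, had 20.98, 20.13 and 19.23 CPM in the overexpressing libraries, against 32.5, 17.2 and 10.9 CPM in the wild-type libraries. The overexpressing libraries were nearly equal and lay between the wild-type extremes. The fold change was 0.996 (95% interval 0.575 to 1.72), and edgeR's adjusted p was 0.998.

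The signalling chains of the B cell receptor had overlapping groups and fold changes close to 1. Cd79a, which encodes Ig-alpha, had 26.4, 21.2 and 32.9 CPM in the overexpressing libraries, against 37.0, 34.2 and 15.7 CPM in the wild-type libraries, a fold change of 0.926 (95% interval 0.563 to 1.52). Cd79b, which encodes Ig-beta, had 20.88, 17.001 and 22.18 CPM in the overexpressing libraries, against 27.6, 19.1 and 10.9 CPM in the wild-type libraries, a fold change of 1.04 (95% interval 0.645 to 1.69). For both chains wild-type replicate 1 was the highest and wild-type replicate 3 the lowest of the 6 libraries. The ratio of Cd79a to Cd79b, in which the length of the genes cancels between libraries, was 1.26, 1.25 and 1.48 in overexpressing lungs, against 1.34, 1.79 and 1.44 in wild-type lungs. It was highest in wild-type replicate 2 and overlapped between the groups.

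The groups overlapped for the co-receptor genes too. Cd22, a receptor for sialic acids that restrains the antigen receptor, had 22.5, 20.2 and 17.1 CPM in the overexpressing libraries, against 28.6, 17.3 and 12.4 CPM in the wild-type libraries, a fold change of 1.03 (95% interval 0.653 to 1.61). Fcer2a, which encodes CD23, the low-affinity receptor for immunoglobulin E on follicular B cells, had 4.27, 5.63 and 4.01 CPM in the overexpressing libraries, against 8.94, 3.20 and 3.47 CPM in the wild-type libraries. The value in wild-type replicate 1 stood apart from the other 5, and the interval was the widest of the 9 on the log2 scale, with a fold change of 0.890 (95% interval 0.463 to 1.71).

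Cd37, a tetraspanin of mature B cells that other leukocytes also carry, had the lowest p of the 9. It had 24.2, 30.4 and 30.7 CPM in the overexpressing libraries, against 29.4, 21.4 and 17.4 CPM in the wild-type libraries. Overexpressing replicates 2 and 3 were above all wild-type libraries, and replicate 1 was within their range. The fold change was 1.25 (95% interval 0.914 to 1.71), and edgeR's adjusted p was 0.692.

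Both adaptor genes had fold changes below 1. Blnk, the adaptor that links the kinase SYK to BTK and phospholipase C gamma and that myeloid cells also express, had 9.70, 7.11 and 11.3 CPM in the overexpressing libraries, against 12.1, 15.1 and 7.37 CPM in the wild-type libraries. Its fold change was 0.814 (95% interval 0.518 to 1.28), and edgeR's adjusted p was 0.822. Bank1, a scaffold protein of B cell receptor signalling, had 9.40, 9.67 and 8.02 CPM in the overexpressing libraries, against 15.4, 7.20 and 5.94 CPM in the wild-type libraries, a fold change of 0.947 (95% interval 0.546 to 1.64). Blnk was highest in wild-type replicate 2, whereas Bank1 was highest in wild-type replicate 1.

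Pax5, the transcription factor that holds cells in the B lineage, had 9.76, 11.03 and 7.70 CPM in the overexpressing libraries, against 12.5, 5.83 and 4.95 CPM in the wild-type libraries. All overexpressing libraries were above wild-type replicates 2 and 3 and below wild-type replicate 1. The fold change was 1.22 (95% interval 0.700 to 2.14), and edgeR's adjusted p was 0.867.

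A change smaller than these intervals was not detectable. All 9 intervals included a fold change of 1, and the lowest and highest bounds among them were 0.463 for Fcer2a and 2.14 for Pax5. The standard error of the log2 fold change was above the median of all genes tested for each of the 9, with a median of 0.309 over the 9 genes against 0.147 over all genes.

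The 9 genes varied far more among wild-type lungs than among overexpressing lungs. The coefficient of variation (CV, SD over mean) ran from 4.37% for Ms4a1 to 22.4% for Blnk in overexpressing lungs, and from 27.0% for Cd37 to 62.3% for Fcer2a in wild-type lungs. It was larger in wild-type lungs for 9 of 9 genes, where this held for 47.5% of all genes tested. It was at least 3 times as large for 5 of 9 genes, where this held for 9.12% of all genes. For 7 of 9 genes every overexpressing library lay within the wild-type range, against 17.4% of all genes. The median CV over all genes was 11.29% in overexpressing and 11.05% in wild-type lungs. The difference in spread was not tested, since it rests on 3 libraries a group and the 9 genes share the same cells.

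The wild-type spread came from the same libraries in most genes. Wild-type replicate 1 was the highest of the 6 libraries for 7 of 9 genes (15.4% of all genes tested), the exceptions being Cd37 and Blnk. Wild-type replicate 3 was the lowest for 7 of 9 (18.7% of all genes), the exceptions being Fcer2a and Blnk. In lists described below, it was also the lowest for 15 of 22 receptor signalling genes and 12 of 16 T cell genes. Wild-type replicate 1 was the highest for 9 of those 22 and 8 of 15 macrophage and monocyte genes. For all 16 T cell genes every overexpressing library lay above all wild-type libraries, against 7.96% of all genes. For these genes the lowest library was therefore always, and the highest never, a wild-type one. Their wild-type sums were 213.1, 192.5 and 161.9 CPM, in the same order as the sums of the 9 B cell genes. Low values in wild-type replicate 3 were thus not particular to the 9 genes. Among the red cell genes (4 haemoglobin genes and Alas2, the enzyme that starts haem synthesis), which mark blood in the tissue, the summed level was 34064, 17444 and 3681 CPM in the overexpressing libraries, against 23419, 15830 and 8588 CPM in the wild-type libraries. These genes thus took the same order as the sum of the 9 B cell genes among wild-type libraries. Among overexpressing libraries their highest sum was 9.25 times the lowest, while that of the 9 B cell genes was 1.08 times the lowest. The part of blood in the wild-type spread was not tested.

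**Figure D2:**
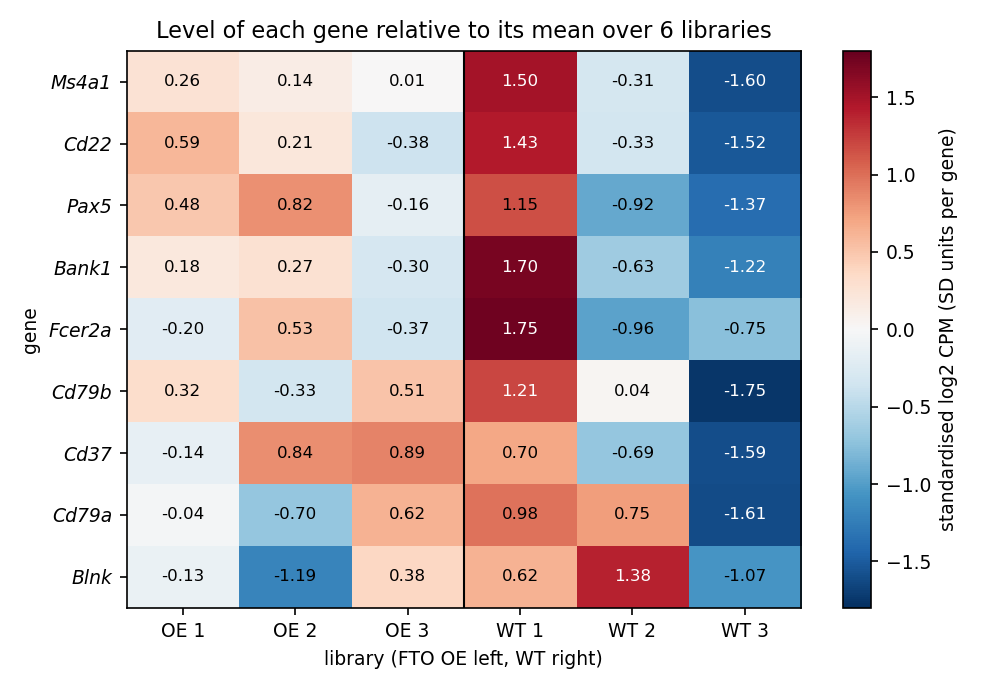
Level of each of the 9 genes in each library as log2 CPM, standardised per gene to mean 0 and SD 1 over the 6 libraries; columns are FTO-overexpressing (OE) libraries 1 to 3 and wild-type (WT) libraries 1 to 3, and red is above and blue below the mean of the gene. Wild-type replicate 1 is red in all rows and wild-type replicate 3 blue in all rows, while wild-type replicate 2 is red for Blnk and Cd79a, near the mean for Cd79b and blue for the other genes.

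Without either of these libraries the fold changes moved, in opposite directions. Without wild-type replicate 1 the median log2 fold change of the 9 genes was 0.46 and 8 of 9 were above 0, with Pax5 at 0.82, Cd37 at 0.56 and Ms4a1 at 0.52. In that fit 4 of 9 genes, Ms4a1, Pax5, Cd37 and Bank1, had an unadjusted p under 0.05, where 12.4% of all genes did, and 0 passed after adjustment (the lowest edgeR adjusted p was 0.192, for Pax5). Without wild-type replicate 3 the median was -0.30 and 7 of 9 were below 0. There 1 of 9, Blnk at -0.54, had an unadjusted p under 0.05, where 7% of all genes did, and 0 passed after adjustment. With any of the other 4 libraries left out, 0 of the 9 had an unadjusted p under 0.05. In those fits 9.02%, 9.61% and 6.7% of all genes did without overexpressing replicate 1, 2 or 3, and 6.52% without wild-type replicate 2.

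**Figure D3:**
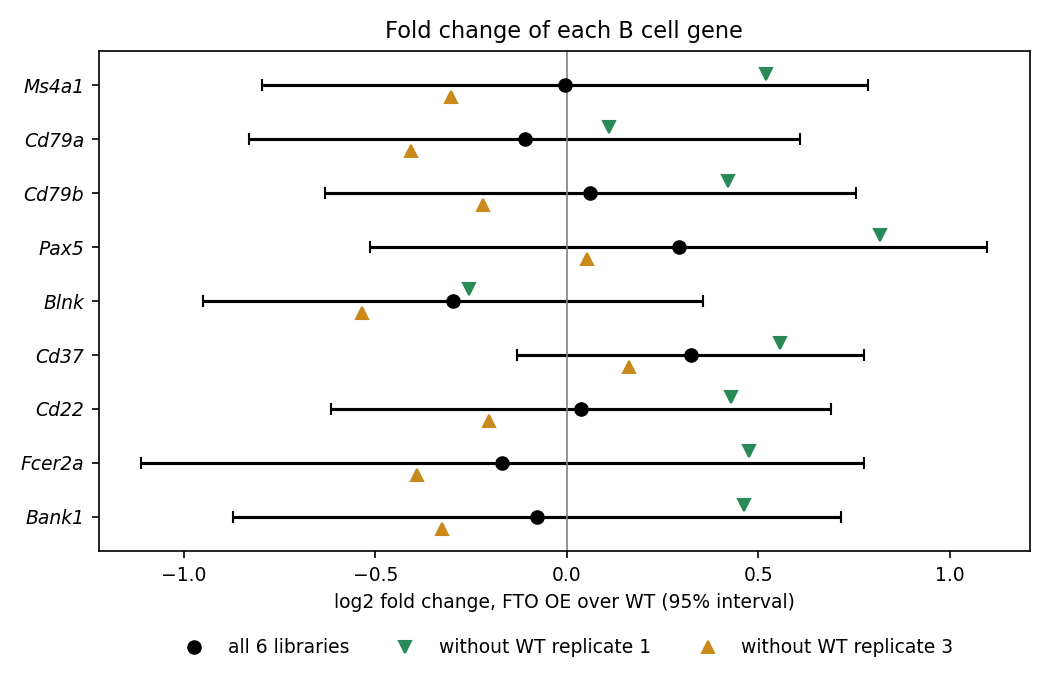
Fitted log2 fold change, FTO-overexpressing over wild-type, of the 9 genes with its 95% interval (black, all 6 libraries), and the fitted value without wild-type replicate 1 (green, pointing down) or without wild-type replicate 3 (orange, pointing up). All intervals include 0, and every gene lies higher without wild-type replicate 1 and lower without wild-type replicate 3.

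Other genes of mature B cells did not pass the test either, and wild-type replicates 1 and 3 were again often at the extremes. Of 20 other surface genes, 0 were called and 0 had an unadjusted p under 0.05, with a median log2 fold change of 0.014. Wild-type replicate 1 was highest for 12 of the 20 and wild-type replicate 3 lowest for 16. Their sums were 353.4, 261.2 and 277.5 CPM in overexpressing lungs, against 381.5, 227.9 and 177.6 CPM in wild-type lungs. The smallest p of the list belonged to Cd180, a toll-like receptor homologue of B cells and myeloid cells, at a fold change of 1.48 (95% interval 0.959 to 2.28), and to Ccr7, a homing receptor for lymphoid tissue, at 0.670 (95% interval 0.419 to 1.07), followed by Ms4a4c at 1.47 and Ly86 at 1.23.

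No gene of B cell receptor signalling passed the test. Of 22 kinases, adaptors and enhancers, 0 were called, and 4 higher and 2 lower had an unadjusted p under 0.05, where 5.77% and 3.67% of all genes did. The kinase gene Fyn, which T cells use, had 87.3, 87.9 and 99.4 CPM in overexpressing lungs, against 59.9, 66.3 and 59.8 CPM in wild-type lungs (edgeR adjusted p = 0.0921). Fold changes were 1.67 for Pik3cd, the leukocyte phosphoinositide kinase, 1.31 for Malt1, a protease that carries the signal to NF-kappaB, and 0.826 for Vav2. Prkcb, also among the 4 higher, was at 1.49-fold, with groups that did not overlap (7.96% of all genes did not in this direction). Genes named for their role had fold changes of 1.06 for Blk, a B cell kinase, 1.11 for Btk and 1.13 for Plcg2, all with overlapping groups. Of 12 inhibitors of the receptor, 0 were called and 2 higher had an unadjusted p under 0.05, the adaptor gene Sla2 at 3.06-fold and Cd5 at 2.43-fold, which T cells carry, followed by the phosphatase gene Ptpn6 at 1.29-fold and the kinase gene Csk at 1.096-fold. The sum of the signalling list was 1364 to 1473 CPM in overexpressing and 1273 to 1440.5 CPM in wild-type lungs, and that of the inhibitors 540.9 to 575.3 CPM and 443.0 to 560.8 CPM.

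Among 16 transcription factors of the B lineage, 0 were called and 4 higher had an unadjusted p under 0.05, where 5.77% of all genes did. These were Ikzf3 at 2.71-fold, Ikzf1 at 1.71-fold, Foxp1 at 1.18-fold and Lef1 at 1.47-fold. For 5 of the 16 every overexpressing library lay above all wild-type libraries, against 7.96% of all genes. Ikzf3, which encodes Aiolos and acts in T cells too, had 29.7, 39.1 and 49.8 CPM in overexpressing lungs, against 18.5, 15.2 and 10.2 CPM in wild-type lungs (edgeR adjusted p = 0.107). In contrast, Ebf1, which specifies B cells and is also expressed by stromal cells, had 19.7, 19.0 and 17.9 CPM in overexpressing lungs, against 19.8, 20.8 and 17.3 CPM in wild-type lungs. Spib, a partner factor of B cells, was at a fold change of 0.959. The median log2 fold change of the list was 0.17, and its sum was 698.6 to 815.1 CPM in overexpressing and 564.5 to 683.8 CPM in wild-type lungs.

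Plasma cell genes did not pass the test either, but took another order of libraries. Of 13 genes, 0 were called and 0 had an unadjusted p under 0.05, with a median log2 fold change of -0.15. Their sums were 4461, 2253 and 6672 CPM in overexpressing lungs, against 5119, 9190.5 and 2592 CPM in wild-type lungs, with wild-type replicate 2 the highest for 10 of 13 genes and overexpressing replicate 2 the lowest for 8. Jchain, which joins the subunits of secreted immunoglobulin A and M, had 1377, 545.2 and 2033 CPM in overexpressing lungs, against 1665, 2899 and 703.4 CPM in wild-type lungs. Blnk, with its highest value in wild-type replicate 2 and its lowest in overexpressing replicate 2, had the same extremes as Jchain. The sum of the dendritic cell markers described below had these extremes too. Ighm, the heavy chain of immunoglobulin M, which B cells and plasma cells make, was at a fold change of 0.595 (95% interval 0.343 to 1.03), Prdm1, the factor that drives plasma cells, at 1.24, Fkbp11 at 0.741 and Iglc2 at 0.592.

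No germinal centre gene or ligand of B cell niches passed the test. Rgs13 and Mef2b were among the genes too low to be tested. Of the 7 germinal centre genes tested, 0 were called, and 1 higher and 1 lower had an unadjusted p under 0.05 (5.77% and 3.67% of all genes). These were Basp1 at 1.34-fold and the death receptor gene Fas at 0.827, both made by other cells too. Mybl1 was at 1.53 and Bcl6 at 0.873. Their sum was 149.8 to 164.4 CPM in overexpressing and 157.1 to 182.5 CPM in wild-type lungs. Of 10 niche genes tested, 0 were called and 1 higher had an unadjusted p under 0.05, the lymphotoxin gene Ltb at 1.76-fold, which T cells also make. Cxcl13, the chemokine that draws B cells into follicles, had 8.94, 4.43 and 7.79 CPM in overexpressing lungs, against 3.68, 11.03 and 6.11 CPM in wild-type lungs, and Tnfsf13b, the survival factor BAFF, was at a fold change of 0.961. Flt3l was at 1.38, Cxcl12 at 1.22 and Tnfsf13 at 0.797, with a list sum of 561.7 to 670.8 CPM in overexpressing and 470.9 to 646.9 CPM in wild-type lungs.

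T cell genes, unlike the 9 B cell genes, included some that passed the test. Of 16 T cell markers, 3 were called higher (0.0765% of all genes were) and all 16 had an unadjusted p under 0.05 in the same direction, where 5.77% of all genes did. They summed to 416.3, 534.2 and 825.2 CPM in overexpressing lungs, against 213.1, 192.5 and 161.9 CPM in wild-type lungs. The called genes were Lck at 4.89-fold, Cd8a at 7.03-fold and Cd8b1 at 8.58-fold, with edgeR adjusted p of 0.0300, 0.0300 and 0.0363, and Themis was at 5.44-fold. When a library was left out, most of these calls were lost, although the fold changes stayed high. All 3 were lost without overexpressing replicate 2 and without wild-type replicate 1, 2 or 3. Cd8a and Cd8b1 were lost without overexpressing replicate 3, and all 3 held without overexpressing replicate 1. Over these fits the edgeR adjusted p ran from 0.0225 to 0.172 for Lck, from 0.0170 to 0.159 for Cd8a and from 0.0275 to 0.161 for Cd8b1, while the lowest log2 fold change of the 3 genes under any alternative was 1.96, for Lck. All 3 calls were also lost with the replicate block and with limma-voom, and in the main fit none had an adjusted p under 0.01. They held with DESeq2, with the other scalings and filters, and without haemoglobin, immunoglobulin and mitochondrial genes. Of the 17 alternatives, Cd8a and Cd8b1 were called in 9 each and Lck in 10. The ratio of the 9 B cell genes to the 16 T cell genes was 0.356, 0.266 and 0.186 in overexpressing lungs, against 0.957, 0.730 and 0.550 in wild-type lungs, and the groups did not overlap. The T cell sums alone did not overlap between the groups, whereas the B cell sums did, so the ratio adds no result on B cells. The ratio was not tested. Among overexpressing libraries the highest T cell sum was 1.98 times the lowest, and among wild-type libraries 1.32 times, while the B cell sums spanned 1.08 and 2.29 times.

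**Figure D4:**
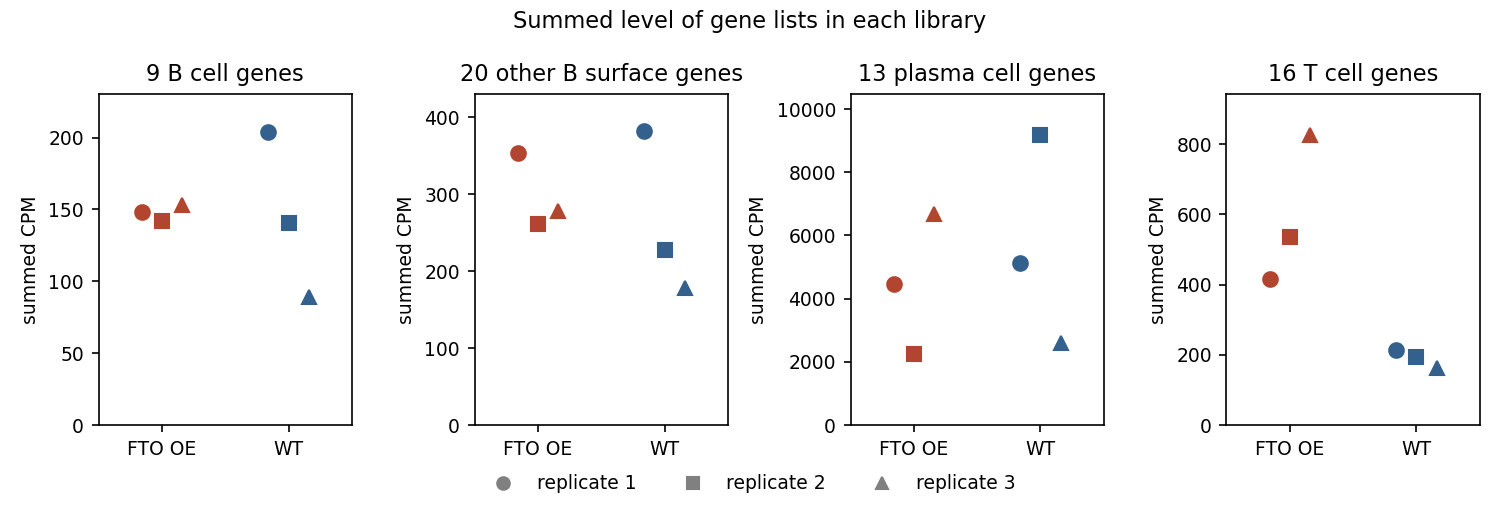
Summed TMM-scaled CPM of 4 gene lists in each library, FTO-overexpressing (FTO OE) on the left and wild-type (WT) on the right; marker shapes give the replicate number. The 9 B cell genes and the 20 other B surface genes overlap between the groups, the 13 plasma cell genes overlap with other libraries at the extremes, and the 16 T cell genes lie above all wild-type values in the overexpressing libraries.

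Markers of other cell types that the lung holds were counted in the same way. Of all genes tested, 5.77% were higher and 3.67% lower with an unadjusted p under 0.05. Of 15 macrophage and monocyte markers, 0 were called, and 2 higher (the monocyte genes Ly6c2 at 2.01-fold and Ccr2 at 1.79-fold) and 1 lower (Mertk at 0.740) had an unadjusted p under 0.05, with Chil3 at 0.721. Their sum was 7725 to 9959 CPM in overexpressing and 9297 to 12727 CPM in wild-type lungs. Of 10 dendritic cell markers, 0 were called and 1 higher had an unadjusted p under 0.05, Ccr9 at 1.61-fold, with Flt3 at 0.693, Tcf4 at 0.898 and Itgae at 0.770, and a sum of 340.0 to 396.0 CPM in overexpressing and 367.3 to 426.3 CPM in wild-type lungs. The cytotoxic list had 3 of 11 called higher (0.0765% of all genes were), Ccl5 at 14.7-fold, Klrk1 at 5.52-fold and Tbx21 at 8.44-fold, with Gzma at 9.24-fold. In that list 10 of 11 genes had an unadjusted p under 0.05, all higher. Its 3 calls were lost without overexpressing replicate 2 and without wild-type replicate 2 or 3, with the replicate block and at an adjusted p of 0.01. Ccl5 alone of the 3 held without overexpressing replicate 3 and with limma-voom, and Tbx21 was lost without wild-type replicate 1. All 3 held with DESeq2 and with the other scalings and filters. Of the 17 alternatives, Ccl5 was called in 12, Klrk1 in 10 and Tbx21 in 9. The list summed to 310.3 to 689.9 CPM in overexpressing and 39.9 to 80.6 CPM in wild-type lungs. Of 10 epithelial markers, 0 were called and 3 lower had an unadjusted p under 0.05, Nkx2-1 at 0.834, Sftpa1 at 0.791 and Cdh1 at 0.865, with Sftpb at 0.833. All 10 had fold changes below 1 (48.5% of all genes did), and 4 had groups that did not overlap (6.9% of all genes did not in this direction). The epithelial sum was 35864 to 43275 CPM in overexpressing and 45476 to 50660 CPM in wild-type lungs, and the groups did not overlap. All 4 genes tested of the lymphoid organ list were uncalled, with Cd1d1 at 1.099, Lyve1 at 0.871, Ccl27a at 0.833 and Prox1 at 1.098. Their part in the levels of the B cell genes was not tested.

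The genes whose pattern over the 6 libraries was most like the mean standardised level of the 9 were, among 13351 eligible genes, Bcl11a, Pdk1, Lyl1, Rubcnl, Rpap3, Nipal1, Rec8 and Gem, with Pearson's r from 0.993 for Bcl11a to 0.981 for Gem. Bcl11a, a transcription factor of B cells and plasmacytoid dendritic cells, had 4.12, 4.04 and 4.06 CPM in overexpressing lungs, against 6.72, 3.83 and 2.37 CPM in wild-type lungs. Pdk1, a mitochondrial kinase gene, had 37.8, 38.3 and 39.3 CPM in overexpressing lungs, against 45.0, 36.9 and 29.4 CPM in wild-type lungs. In each of these genes the overexpressing libraries lay within the wild-type range. With 6 libraries and this many genes the ranking is a description of these libraries.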

How the data were processed

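Total RNA of 6 lung samples was extracted with TRIzol and made into stranded mRNA libraries, per the labels' protocols. The submitters' processing notes name fastp, HISAT2 and StringTie. Neither genome build, annotation nor strand setting is given in the sources used here; if strand was ignored, reads of antisense or overlapping neighbours are mixed. The authors deposited expected counts (estimated read counts per gene, 9.66% to 10.3% of rows per library not whole), which were rounded to whole numbers. Rows without a symbol (525) held 0.119% to 0.143% of counts and remained in library sizes.

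Groups were taken from the labels. In R 4.3.3, edgeR 4.0.16 was run over the whole table with its default low-count filter, TMM scaling and the quasi-likelihood test with group as the only term. Benjamini-Hochberg adjustment covered 16989 genes, with a threshold of 0.05. Standard errors and 95% intervals come from the F statistic. Intervals include the spread between libraries, and molecular identifiers were not used. The procedure was tested on simulated counts. No pair of libraries agreed within counting noise: the chi-square per degree of freedom was 28.1 to 48.7 within groups and 20.9 to 46.6 between groups.

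The members, gene lists, alternatives and tests were chosen with earlier results of these data known. Named were the 9 genes, Fto, from each list up to 4 genes (those called, then those with the smallest p), and the 8 genes most like the 9 by Pearson's r (average log2 CPM of at least 1, 0.5 CPM added before logs). Blk, Btk, Plcg2, Ebf1, Spib, Jchain, Cxcl13, Tnfsf13b and Sftpc, and Rgs13, Mef2b and Rag2, were named for their role, after their values were seen. Prkcb and Cd81 were named as the remaining signalling genes, higher and lower, with an unadjusted p under 0.05. 1 of the list genes, Fdcsp, was not found. Values of some single genes are not reported here. Upstream sequences are from RefSeq, build GRCm38.p6. Alternatives were other scalings and filters, DESeq2 1.42.0, limma-voom (limma 3.58.1), a replicate block, leaving out haemoglobin, immunoglobulin and mitochondrial genes, and leaving out each library.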

Additional observations from a re-analysis of the deposited data

How the results depend on the processing

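0 of the 9 genes was called under any of the 17 alternatives, including adjusted p of 0.01 and 0.1. The depth was no limit for detecting the 9 genes, but 3 libraries a group and the wild-type spread limit what change could be seen. The number of genes called over the whole table was 16 and depended on the setting: 287 with no low-count filter, 2 with the replicate block, 423 with DESeq2, 5 with limma-voom, 31 without haemoglobin, immunoglobulin and mitochondrial genes, 1 at an adjusted p of 0.01, 70 at 0.1, and from 1 to 49 when a library was left out. The cause was not tested.

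The median log2 fold change of the 9 genes ran from -0.30 to 0.46 when a library was left out. Of 135 values of single genes under alternatives, 118 kept their sign and 17 reversed it. The log2 fold change of Ms4a1 turned to 0.034 with library size only, 0.13 with the replicate block, 0.13 with limma-voom, 0.025 without overexpressing replicate 3 and 0.52 once wild-type replicate 1 was left out. That of Bank1 turned to 0.042 with the block, 0.039 with limma-voom and 0.46 without wild-type replicate 1. Cd22 turned to -0.063, -0.040 and -0.20 when overexpressing replicate 1, wild-type replicate 2 or wild-type replicate 3 was left out. Cd79a turned to 0.033, 0.11 and 0.028 without overexpressing replicate 2, wild-type replicate 1 or wild-type replicate 2. Cd79b turned to -0.020 and -0.22 without overexpressing replicate 3 or wild-type replicate 3, and Fcer2a to 0.48 with wild-type replicate 1 left out. In that same fit Cd79b was at 0.42 and Cd22 at 0.43, and without wild-type replicate 3, Cd79a was at -0.41 and Bank1 at -0.33. Fcer2a was at -0.42 without wild-type replicate 2. Pax5, Cd37 and Blnk did not change sign in the 15 alternatives that gave them a value, but their size did change. Pax5 ran from 0.053 without wild-type replicate 3 to 0.82, Blnk from -0.54 to -0.052 without wild-type replicate 2, and Cd37 from 0.16 to 0.56.

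Same-numbered samples of the groups did not deviate together (correlations across genes of 0.15, -0.34 and -0.38 for numbers 1, 2 and 3), so the replicate numbers were not taken to pair the samples. Overexpressing replicate 2 correlated best with wild-type replicate 3 (0.49) and overexpressing replicate 3 with wild-type replicate 2 (0.32). With the replicate block the median of the 9 genes was 0.11.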
